A study of Mus musculus with 10 samples.

Results

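The weaker Ldb1 peaks of mouse chromosome 11 are 840 of the 4252 regions in a deposited list of Ldb1 binding peaks. They were selected on 2 values of the list, a position on chromosome 11 and a highest coverage below 40 in the chromatin immunoprecipitation (ChIP) library, so their number, their chromosome and their ChIP coverage of 20 to 39 are given by the choice and are described here without a test. The list compares 1 ChIP library made with an anti-Ldb1 antibody and 1 control library made without antibody. Both came from Flk1+ cells sorted from day 4 embryoid bodies, the aggregates in which embryonic stem cells differentiate after withdrawal of leukaemia inhibitory factor. Flk1, encoded by Kdr, is the receptor that marks the shared progenitors of blood and endothelium, and the labels call these cells BL-CFCs or hemangioblast equivalents. The labels do not give the genotype of the cells used for ChIP. The series also holds 8 RNA libraries of Flk1+ cells, 4 from Ldb1+/+ and 4 from Ldb1-/- cells. With 1 library on each side there is no replicate of any peak, so differences between sets of peaks carry no p-value. The 95% Wilson intervals beside shares cover counting error only.

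Ldb1 does not bind DNA by itself. It is an adaptor that dimerizes and is brought to DNA by partners, in blood progenitors by complexes in which the LIM-only protein Lmo2 links Ldb1 to GATA factors and to Tal1 with its E-protein partners, and it is known for holding distant enhancers next to promoters. A ChIP peak is a stretch where antibody-selected fragments pile up. The coverage is the height of that pile, taken here at its highest point, and the control library shows how high the pile is without the antibody. A peak of low coverage rests on few reads, so its height and its control value are coarse numbers. The sequencing depth of the ChIP and the control library is unknown.

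Weaker peaks were far denser on chromosome 11 than on any other autosome. Over a span of 118.4 Mb from the first to the last listed peak, chromosome 11 held 7.09 weaker peaks per Mb, with an exact Poisson counting interval of 6.62 to 7.59. The other 18 autosomes held 0.854 per Mb on chromosome 14 to 2.28 per Mb on chromosome 8, and 1.27 per Mb when pooled, so the ratio of chromosome 11 to the pool was 5.59. Chromosome 11 is rich in genes, and its 1581 genes in the RNA count table make up 8.54% of the autosomal genes against 4.97% of the autosomal span. Scaled to genes, it held 53.1 weaker peaks per 100 genes against 17 on the pooled other autosomes, a ratio of 3.13, and 29.9 on chromosome 8, the next in order. The strong peaks, with a coverage of 40 or more, numbered 72 on chromosome 11. Their density was 0.608 per Mb against 0.197 on the other autosomes, a ratio of 3.08, and per 100 genes chromosome 8 stood above chromosome 11, with 4.92 against 4.55. Together the weaker peaks covered 0.562% of the span of chromosome 11, against 0.0873% on the other autosomes.

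**Figure D1:**
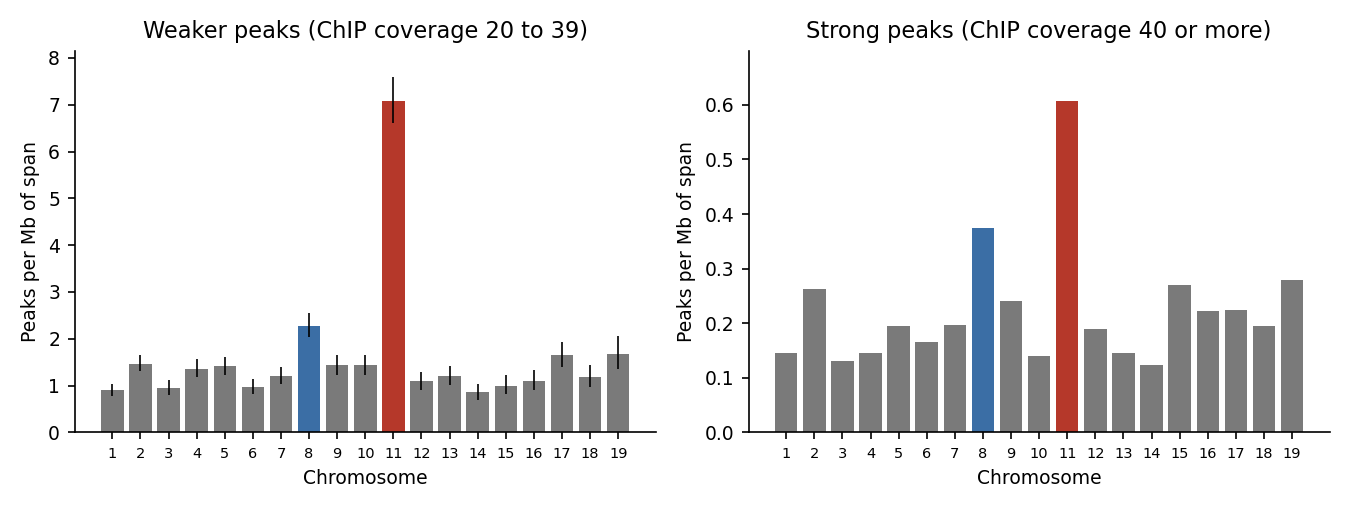
Peaks per Mb of span (from the first to the last listed peak) on each autosome, for weaker peaks (left, with exact Poisson 95% intervals) and strong peaks (right), on separate scales. Chromosome 11 is red and chromosome 8 blue; chromosome 11 stands at 7.09 weaker and 0.608 strong peaks per Mb, the highest bar in both panels.

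The share of the list that lay on chromosome 11 changed with the height of the peaks. Of 3711 weaker autosomal peaks, 22.6% were on chromosome 11 (interval 21.3 to 24). The share was 19.1% (16.9 to 21.4) among peaks with a ChIP coverage of 20 or 21, 27.4% (23.2 to 32) at 26 or 27, and 28.7% (24.1 to 33.7) at 30 to 34. It was 16.7% (12.1 to 22.6) at 40 to 49 and 10.6% (7.21 to 15.2) among the 227 peaks of 60 or more. Chromosome 8 followed another course, with 7.87% of the weaker peaks and 12.8% of those of 60 or more. At the threshold the peaks on either side overlapped in both other values. The 6 chromosome 11 peaks with a ChIP coverage of 39 had control coverages of 2 to 22 and widths of 626 to 1294 bp, and the 7 peaks at 40 had control coverages of 3 to 17 and widths of 542 to 1450 bp.

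**Figure D2:**
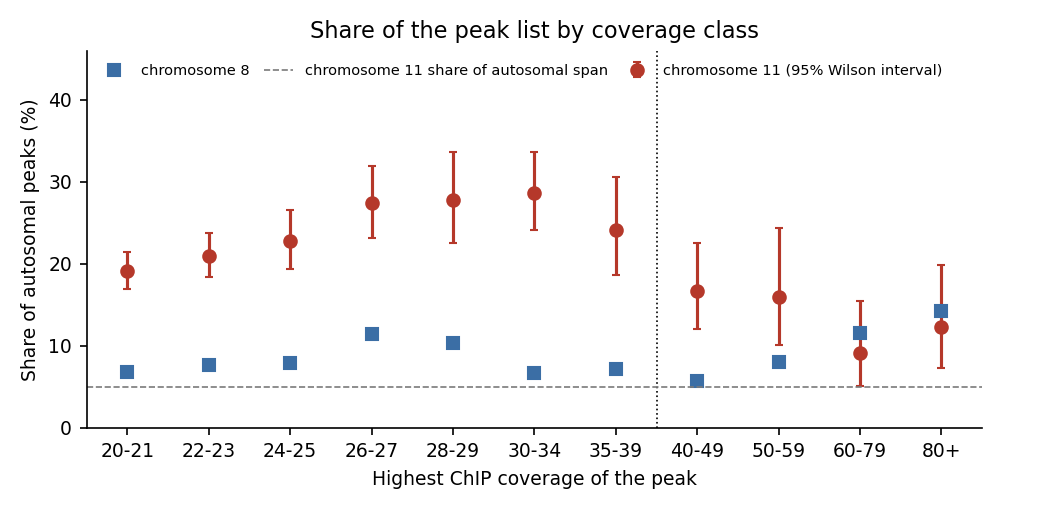
Share of autosomal peaks that lie on chromosome 11 (red, with 95% Wilson intervals) and on chromosome 8 (blue) by class of highest ChIP coverage; the dotted line marks the threshold of 40 and the dashed line the 4.97% of autosomal span on chromosome 11. The red points lie between 19.1% and 28.7% in the weaker classes and lower, at 9.09% to 16.7%, beyond the threshold.

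Members lay along the whole chromosome, but unevenly. The first was chr11:3102150-3103390, with a ChIP coverage of 34 and a control coverage of 18, and the last chr11:121533929-121534880, with 25 and 5. Positions are on mm9, the build named in the submitters' processing notes, and are printed as deposited, with a start that may count from 0 or from 1. In bins of 10 Mb, the 12 complete bins held 14 members (from 10 to 20 Mb) to 117 members (from 100 to 110 Mb), with a median of 71. Each of the 12 exceeded the median of 10 over 226 complete bins of the other autosomes, and 8 of the 12 exceeded the fullest of those 226, a bin of chromosome 8 with 41 peaks. The bins from 20 to 50 Mb held 32, 31 and 30 members, whereas every complete bin from 50 Mb on held at least 64. The boundary of 50 Mb was chosen after these counts were seen. Before it lay 160 members, or 3.41 per Mb, and from it on 680 members, or 9.51 per Mb, 2.79 times as many. The strong peaks of chromosome 11 divided in nearly the same way, 14 before and 58 from 50 Mb on, so 81% of the weaker and 80.6% of the strong peaks lay on the far side. Peaks on the far side were not higher, with a mean ChIP coverage of 25 against 25.6.

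The far end was also the fuller one on the other autosomes when they were pooled. With the span divided into 10 equal parts, parts 9 and 10 of chromosome 11 held 12.3 and 10.6 members per Mb against 2.79 in part 2, and on the pooled other autosomes they held 1.69 and 1.82 weaker peaks per Mb against 1.21. Single other autosomes differed widely, with 5.15% to 29% of their weaker peaks in part 10, where chromosome 11 had 14.9% of its own. The largest stretch without a member, 4.47 Mb between midpoints, was bordered by chr11:11937075-11937440 (ChIP coverage 22, control 4) and chr11:16407700-16408494 (ChIP coverage 23, control 3).

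**Figure D3:**
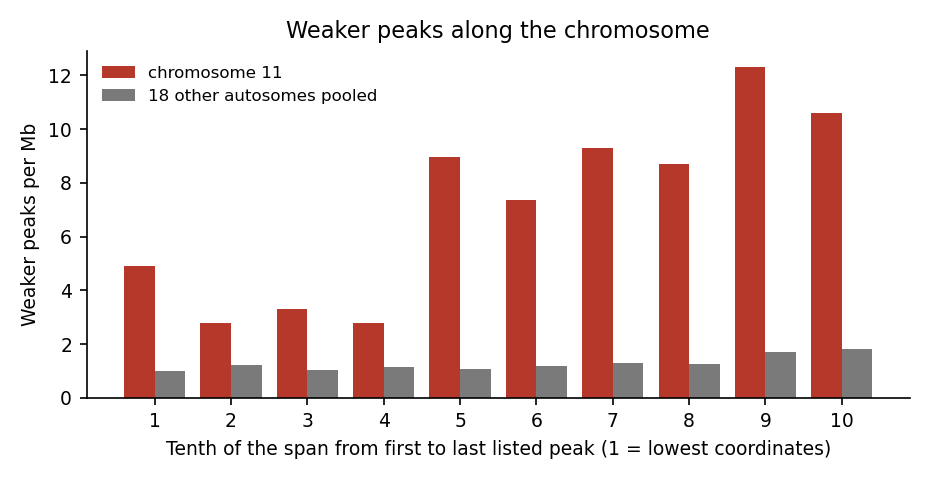
Weaker peaks per Mb in 10 equal parts of the span from the first to the last listed peak, for chromosome 11 (red) and for the 18 other autosomes pooled (grey), with part 1 at the lowest coordinates. Chromosome 11 is above the pool in all 10 parts, with 2.79 to 4.9 per Mb in the first 4 and 7.35 to 12.3 per Mb in the other 6.

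Neighbouring members stood close together, which follows in part from their number. The median distance between midpoints of neighbours was 49.5 kb (quartiles 15.9 and 132 kb) against 266 kb (90.1 and 838 kb) on the other autosomes and 152 kb on chromosome 8. Under 5 kb lay 96 of the 839 distances, 11.4% (9.46 to 13.8), against 3.65% (3.02 to 4.4) on the other autosomes. Under 50 kb lay 50.2% against 16.1%. Once each distance was divided by the mean distance of its group, these differences were small. The median was 0.351 of the mean on chromosome 11 and 0.335 on the other autosomes, and 23% and 22.2% of distances were below 0.1 of the mean. The closest pair, with midpoints 434 bp apart, was chr11:82683790-82684220 (ChIP coverage 23, control 6) and chr11:82684265-82684612 (ChIP coverage 21, control 5), which do not overlap. No members overlapped.

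**Figure D4:**
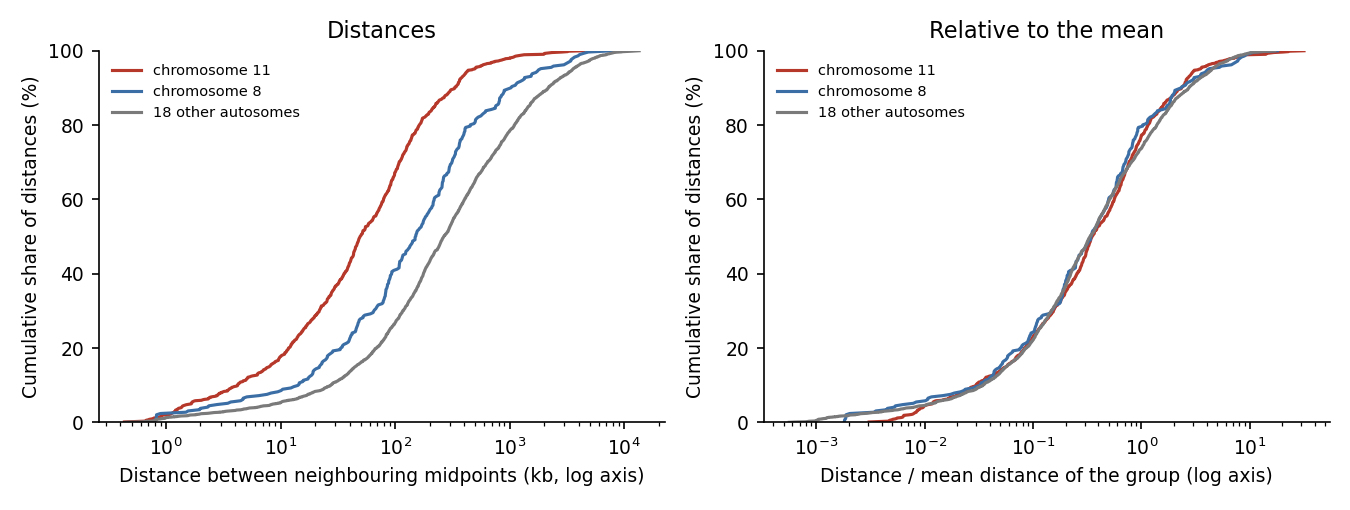
Cumulative share of the distances between midpoints of neighbouring weaker peaks on chromosome 11 (red), chromosome 8 (blue) and the 18 other autosomes (grey), in kb (left) and divided by the mean distance of the group (right), both on log axes. The chromosome 11 curve lies to the left of the others in kb, with a median of 49.5 kb against 266 kb, and close to them after division, with medians of 0.351 and 0.335.

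Linking neighbours under 50 kb apart gave runs of weaker peaks. Chromosome 11 had 31 runs of 5 or more, which held 228 members (27.1%), and 30 of these runs began beyond 50 Mb. The other 18 autosomes together had 5 such runs with 32 peaks (1.11%), the longest a run of 10 on chromosome 10. Peaks with no weaker neighbour under 50 kb made up 29.8% on chromosome 11 and 71.1% elsewhere. The longest run, chr11:115891410-116231410, held 19 members over 340 kb, with ChIP coverages of 20 to 34, control coverages of 0 to 10 and widths of 404 to 1170 bp. Of the 19, 5 were at a control coverage of 0. The run held 1 strong peak. The next longest, chr11:94182609-94538850, held 16 members over 356 kb and no strong peak. Strong peaks lay within 5 kb of 1.31% of members and of 1.29% of weaker peaks elsewhere, and within 50 kb of 10.7% (8.8 to 13) and 5.99% (5.18 to 6.92). Another weaker peak lay within 5 kb of 20.8% of members and of 6.93% of the others. These shares, too, follow in part from the number of peaks on the chromosome.

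Members were on the whole wider than weaker peaks elsewhere, and the difference lay in the broader peaks. Their median width was 680 bp (quartiles 540 and 966 bp) against 620 bp (532 and 770 bp), and the medians of the other 18 autosomes ran from 600 bp on chromosome 17 to 650 bp. The lower quartiles were thus close and the upper ones apart. Widths of 1000 bp or more were found in 193 members, 23% (20.3 to 25.9), against 10.2% (9.18 to 11.4) on the other autosomes, whose highest single value was 15.6% on chromosome 17. Of all weaker autosomal peaks of 1500 bp or more, 47.8% lay on chromosome 11. ChIP coverage moved with width: members of 1000 to 1500 bp had a mean coverage of 26.9 and those of 500 to 750 bp 24.8, while elsewhere both classes averaged 24.8. At equal ChIP coverage the members had the larger median width at each of the 17 values from 23 to 39. At the 3 lowest values, 20 to 22, which hold 309 members (36.8%), they had the smaller one: 531 against 549.5 bp at 20, 579.5 against 585 bp at 21 and 572 against 609 bp at 22. The strong peaks of chromosome 11 were also wider, with 22.2% (14.2 to 33.1) at 1000 bp or more against 11% (8.39 to 14.2) of strong peaks elsewhere.

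The broadest members were chr11:69211221-69214180 (2959 bp, ChIP coverage 23, control 9), chr11:33100080-33102520 (2440 bp, 24 and 1) and chr11:97489149-97491540 (2391 bp, 28 and 3). The narrowest were chr11:32501865-32502056 (191 bp, 21 and 4), chr11:76384217-76384468 (251 bp, 20 and 2) and chr11:69618562-69618854 (292 bp, 20 and 0). ChIP coverage was 23 to 28 at the broadest of these and 20 to 21 at the narrowest, close to the lowest listed value of 20. The highest point lay near the middle of the peak, at a median of 48.8% of its width in members and 49.3% elsewhere.

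The control library stood slightly lower at the members on average. Their median control coverage was 4 (quartiles 3 and 6) and the mean 4.79, against a median of 4 (3 and 7) and a mean of 5.17 on the other autosomes. Chromosomes 10 (4.49) and 2 (4.67) had lower means than chromosome 11. At each ChIP coverage from 20 to 29, which takes in 82.7% of members, the mean control coverage was lower on chromosome 11 than on the pooled other autosomes. Over all 20 ChIP values it was lower at 16 and higher at 32, 34, 35 and 39. Each pair of ChIP and control coverages has a single adjusted p in the authors' deposited table, so the control value helped to decide which peaks are listed. That adjusted p was lower at members as well, with a median of 0.000416 against 0.000826. No other autosome had a lower median, but chromosome 10 had the same one. Of the 500 weaker autosomal peaks with the smallest adjusted p, 165 (33%, interval 29 to 37.2) were on chromosome 11, against 22.6% of all 3711. Members also had the higher mean ChIP coverage, 25.1 against 24.4, and the adjusted p follows from both coverages.

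A control coverage of 0 set many members apart. It was found at 61 members, 7.26% (5.69 to 9.22), and at 37 of 2871 weaker peaks elsewhere, 1.29% (0.936 to 1.77). The highest share on another autosome was 3.43%, on chromosome 10. Thus 62.2% (52.4 to 71.2) of all weaker autosomal peaks without control coverage were on chromosome 11. With these peaks left out, the mean control coverage was 5.16 on chromosome 11 and 5.24 elsewhere. At equal ChIP coverage, it was still lower on chromosome 11 at 9 of the 10 values from 20 to 29. The most frequent value was then 4 on chromosome 11, at 18% of members, and 3 on the other autosomes, at 18.1% of their peaks. Coverage of 2 was found at 9.17% of members and 12.7% of the others, and coverage of 5 at 16.1% and 11.2%. Of the strong peaks, 4 of 72 were at 0 on chromosome 11, 5.56% (2.18 to 13.4), and 6 of 447 elsewhere, 1.34% (0.617 to 2.9), so the intervals overlapped. All 4 lay in unbroken stretches of peaks at 0 that also held members, so they are not a separate set of places.

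**Figure D5:**
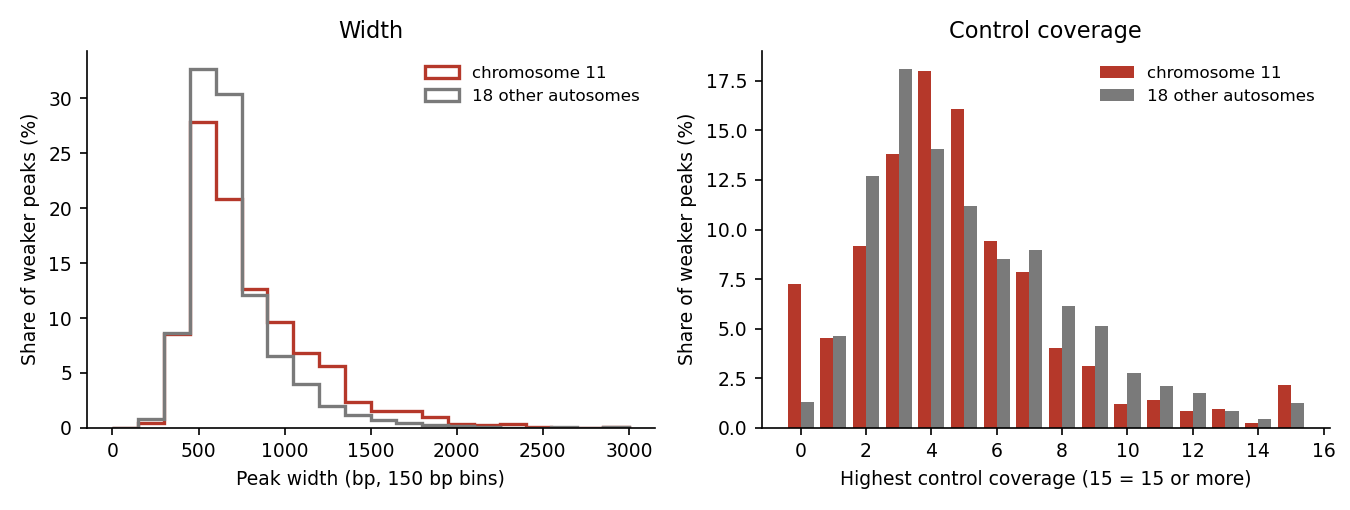
Width in bins of 150 bp (left) and highest control coverage (right, 15 standing for 15 or more) of the weaker peaks of chromosome 11 (red, 840 peaks) and of the 18 other autosomes (grey, 2871 peaks), each as a share of its group. Widths of 1000 bp or more make up 23% of red and 10.2% of grey peaks. At a control coverage of 0 stand 7.26% of red against 1.29% of grey peaks.

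Members without control coverage lay on the far side of the chromosome and next to one another. Beyond 50 Mb lay 59 of the 61, which is 8.68% (6.79 to 11) of the members there, against 2 of 160, or 1.25% (0.343 to 4.44), before it. From 100 Mb on, 35 of 242 members (14.5%) were at 0. The share followed the distance to the nearest other member: it was 22% (15.9 to 29.5) of 141 members with a neighbour 1 to 5 kb away, 13.1% (7.47 to 21.9) at 5 to 10 kb, 4.53% (2.77 to 7.34) at 10 to 50 kb and 1.6% (0.624 to 4.04) beyond 50 kb. On the other autosomes the shares in the same classes were 5.6%, 2.22%, 2.22% and 0.784%. Among the 96 pairs of neighbouring members under 5 kb apart, both were at 0 in 15 and 1 of them in 10, whereas among 104 such pairs elsewhere both were at 0 in 3 and 1 in 1. Closer than 1 kb no peak was at 0, 0 of 34 members and 0 of 74 others, which allows shares of up to 8.82% and 4.05% when 3 counts are taken as the floor (the upper Wilson limits are 10.2% and 4.93%). This pattern was noticed in these data and described in the same data.

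Counted over all chromosome 11 peaks, strong ones included, 18 unbroken stretches had 2 or more neighbouring peaks at control 0, and they held 41 of the 61 members. They were 1.98 to 40.1 kb long, with a median of 6.47 kb. The stretch chr11:69613500-69618854 held 4 members with ChIP coverages of 27, 25, 20 and 20 over 5.35 kb, and the peaks on either side of it had control coverages of 6 and 3. The stretch chr11:57641111-57646501 held 3 members with ChIP coverages of 23, 24 and 20, and chr11:117641013-117648152 held 3 with 20, 22 and 21. In chr11:120080070-120099487, 3 members of 22, 20 and 20 followed 2 strong peaks of 48 and 51, all at a control coverage of 0 over 19.4 kb. The peaks that flank a stretch have control coverage by definition, and at the stretches named here it was between 1 and 6. The deposited table gives only the highest value within each peak, so its depth between the peaks is unknown.

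Since the adjusted p follows from both coverages, the members with the smallest values are those with a high ChIP coverage for a weaker peak and little control coverage. Of the first 10, 7 had no control coverage and the others 1 or 2, and their ChIP coverages were 29 to 39. All 10 lay beyond 50 Mb, as did 81% of all 840 members and 59 of the 61 without control coverage. Beyond 100 Mb lay 8 of the 10, 242 of all 840 members and 35 of the 61. Control coverage enters the ranking, so the position of the 10 is not separate from that of the 61. At their head stood chr11:72271390-72272130, 740 bp wide, with a ChIP coverage of 37, a control coverage of 0 and an adjusted p of 4.56e-10 in the authors' deposited table. Another 3, chr11:100258057-100259300, chr11:102170070-102170786 and chr11:114641280-114641910, had a ChIP coverage of 35, a control coverage of 0 and, in the authors' deposited table, the same adjusted p of 1.61e-09. The highest ChIP coverage among the 10 was 39, at chr11:77605050-77605740, with a control coverage of 2. Another member lay within 50 kb of 9 of the 10, against 70.2% of all members. A strong peak lay within 50 kb of 2 of the 10, against 10.7% of all members. With only 10 peaks these counts do not set them apart. At the other end, the members with the highest control coverage in the authors' deposited table were chr11:62364120-62365414 (ChIP coverage 39, control 22, adjusted p 0.00849), chr11:60267849-60268293 (38 and 21, 0.00813) and chr11:101342032-101342830 (37 and 20, 0.00775).

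The RNA libraries give a readout of chromosome 11 that the choice of peaks did not use. Genes of chromosome 11 took 11.7% of all counts in each of the 4 Ldb1+/+ libraries and 8.73%, 8.75%, 8.86% and 8.86% in the Ldb1-/- libraries, so the genotypes did not overlap. Within a genotype, libraries 1 and 2 were nearly as alike as repeat counts of 1 library, as were 3 and 4, so each pair was summed to 1 sample, which leaves n = 2 per genotype. The median level, in log2 CPM (counts scaled to the library total), of 886 chromosome 11 genes stood above that of 9317 genes of the other autosomes by 0.58 and 0.57 in the Ldb1+/+ samples and by 0.08 and 0.12 in the Ldb1-/- samples. The difference was -0.48 on the log2 scale, larger than the spread within either genotype. An exact two-sided permutation test over the 2 and 2 samples gave p = 0.333, the smallest value this design allows. Chromosomes 7, 8, 9, 14 and 19 reached the same p, with differences of 0.06 to 0.27 in the other direction. Of the 886 genes, 91.1% were lower in Ldb1-/- cells, against 48.5% of genes on the other autosomes and 16.9% of those on chromosome 8. The difference between genotypes for the other 18 autosomes went from -0.08 on chromosome 12 to 0.27 on chromosome 8. In the Ldb1+/+ samples the mean level of chromosome 11, 0.58, lay outside the range of the other autosomes, -0.23 (chromosome 7) to 0.20 (chromosome 18). In the Ldb1-/- samples its mean level, 0.10, lay within their range, -0.16 (chromosome 6) to 0.40 (chromosome 8). Chromosome copy number was not measured in the data used here, and the part of the RNA level of chromosome 11, or of its control coverage, in the density of its peaks was not tested. Total counts were 11258493 to 13483294 per library, and all 6 fixed markers of Flk1+ progenitors were at 1 CPM or more in every library. Their summed level was 947 to 1011 CPM in Ldb1+/+ and 202 to 561 CPM in Ldb1-/- libraries. Kdr, 1 of the 6, was at 443 to 614 CPM in Ldb1+/+ libraries. The sum of 202 CPM in the lowest Ldb1-/- library includes Kdr, so Kdr was below its Ldb1+/+ levels there. The targeted gene Ldb1 stood at 105 to 117 CPM in Ldb1+/+ and 76.3 to 98.5 CPM in Ldb1-/- libraries, and since the deleted part of the gene is not given here, these levels do not check the genotype labels. Summed over their fixed markers, undifferentiated embryonic stem cells stood at 234 to 749 CPM in Ldb1+/+ and 450.0 to 457 CPM in Ldb1-/- libraries, primitive erythroid cells at 17.6 to 29.2 and 0.0742 to 0.0888 CPM (with Hbb-bh1 at 0 in Ldb1-/-), cardiac and other mesoderm at 5.83 to 74 and 4.21 to 8.08 CPM, and endoderm at 26.4 to 32.4 and 5.49 to 17.9 CPM. The 1 of 2 neuroectoderm markers measured stood at 3.56 to 5.3 and 3.42 to 4.26 CPM, and the part of these cell types in the chromosome 11 level was not tested.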

How the data were processed

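The authors deposited, for the Flk1+ ChIP and control libraries, a peak list that gives positions, the highest coverage (signal) of either library within the peak and an adjusted p-value, per the file headers. A second deposited table holds raw read counts per Ensembl gene for 8 RNA libraries, per the file headers. The build mm9 and the tool DESeq are named in the submitters' processing notes; the aligner, the peak caller, the adjustment of p and how the control library was scaled were not given in the sources used here. Every listed peak has a ChIP coverage of at least 20 and an adjusted p of at most 0.00998, so weaker peaks are cut off from below by both values.

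The members, lists and tests were chosen with earlier results of these data known. Peaks were summarised with pandas 2.3.3, numpy 2.4.6 and scipy 1.17.1 under Python 3.11.15, and drawn with matplotlib 3.10.9. Chromosome lengths were taken as the span of listed peaks. Peaks were not tied to genes and no peak sequence was read, because neither an mm9 annotation nor an mm9 genome was used here. The regions named are the 10 members with the smallest adjusted p, the 3 widest, narrowest and highest in control coverage, the first and last, the borders of the largest gap and the longest run. The closest pair, the second run and the stretches without control coverage were named after their values were seen. Of 21868 genes in the count table, 19332 were placed on 1 chromosome through symbols and a RefSeq table of GRCm38.p6, used for chromosome membership alone. Nothing says that RNA samples came from separate cultures, so their spread may be technical. Levels are log2 CPM with 0.5 added to each count, over genes with a mean above 3, without further scaling. Mean chi-square values per gene were 1.065 to 1.101 for libraries summed to 1 sample and 12.76 to 28.47 for other pairs of a genotype. The functions were tested on simulated data. Alternatives were other coverage thresholds, stricter p, merging, other bins, leaving out chromosome 8, and other settings of the RNA level.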

Additional observations from a re-analysis of the deposited data

How the results depend on the processing

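The share of chromosome 11 among weaker autosomal peaks (22.6%) was 25.3% at an adjusted p of at most 0.001, 28.2% at 0.0001, 21.2% with peaks under 5 kb apart merged, 14.8% with those under 50 kb merged, and 24.6% without chromosome 8. It moved by less than its interval with coverage under 30 or under 60, and, added after seeing the data, without peaks at control 0 (21.6%). The density was 5.87 per Mb with coverage under 30 (5.36 times the other autosomes) and 53.1 per 100 genes. The fullest bin held 10% of members with bins of 5 Mb and 17.4% with 10 equal parts of the span. The median spacing was 68.4 kb after merging under 5 kb, against 294 kb elsewhere. The median width was 640 bp with coverage under 30, against 610 bp elsewhere, so less than the main difference. Control coverage, weighted to the ChIP coverages of the other autosomes, was 4.44 (medians) and 4.63 (means), against 4.75 and 5.17 elsewhere. Under these settings chromosome 11 stayed above the other autosomes in density and width and below them in spacing, and its unweighted median control coverage was 4, as elsewhere. Of 42 alternatives in all, 28 were counted as unchanged. For the peaks, unchanged means a value within the main value's interval. For width and control coverage, the difference from the other autosomes also had to stay within that interval less their main median. The density per 100 genes is in another unit and was counted as moved without an interval. For the RNA level, unchanged means the same side of the test. Settings with summed samples could not leave it, as too few samples remain for a small exact p. A turned direction was looked for in the RNA level alone, and 0 alternatives had one. The RNA difference was -0.49 with an exact p = 0.0286 when all 8 libraries were treated as separate, which the near-identical pairs do not allow. Leaving out single libraries or samples gave -0.51 to -0.45, and with a replicate block it was -0.48 (exact p = 0.5, n = 2 pairs). The replicate numbers share no stated origin, and the differences between samples of a genotype correlated at -0.08 across 11051 genes, so they were not taken as pairs. A ChIP coverage of 20 to 39 and a control coverage mostly under 10 rest on few fragments, and with 1 library each no error between cultures can be given.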
